A study of Arabidopsis thaliana with 12 samples.

Results

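Beta-glucosidases of the BGLU family were described in roots of Arabidopsis thaliana across 2 genotypes and 2 treatments. A gene was included when a probe set, the group of array features that reports 1 transcript, was annotated to that gene alone under a symbol of BGLU and a number, and when its mean signal over the 12 arrays was at least 23. Of 40 reference genes with such a symbol, 20 had a probe set of their own in the annotation used here, each a single one, and 7 of these reached the minimum: BGLU15, BGLU16, BGLU25, BGLU42, BGLU44, BGLU46 and BGLU47. The other 20 genes were not analysed here as single genes, and BGLU21 and BGLU22 share 1 probe set. The dimmest of the 7 was BGLU47, with a mean signal of 39.8, and the brightest below the minimum was BGLU45, with 18.6.

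The enzymes of this family belong to glycoside hydrolase family 1 and cleave a sugar, most often glucose, from a small molecule or a short sugar chain. Plants store hormones, lignin precursors, coumarins and defence compounds as inactive glucosides, and a beta-glucosidase releases the active part when it meets its substrate. In maize, the beta-glucosidase Zm-p60.1 releases active cytokinin from its glucosides. In Arabidopsis roots, members of the family are known for the ER bodies, which hold the abundant enzyme PYK10, and for the release of scopoletin and of monolignols.

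Roots came from plants grown for 2 weeks on vertical agar plates, with 3 arrays in each of the 4 groups: wild-type Col-0 under DMSO, wild-type Col-0 under trans-zeatin, arr10 arr12 under DMSO and arr10 arr12 under trans-zeatin. Trans-zeatin is a natural cytokinin and DMSO is the solvent control. Titles of the treated arrays read CK in wild type and TZ in the mutant. The treatment label says trans-zeatin for both, and both were taken as that. The mutant combines SALK insertion lines in ARR10 and ARR12, type-B response regulators that carry the cytokinin signal to its target genes. The transcripts of ARR10 and ARR12 were not analysed here, so the genotypes rest on the labels. The labels give neither the dose nor the length of treatment nor the mutant's ecotype, and the extraction protocol speaks of seedlings where the tissue label says roots. All arrays shared 1 scale, with a median signal of 39.3 to 41.6, and the correlation of log2 values was 0.976 to 0.991 between arrays of a group. Of 24 photosynthetic marker genes, 3 had a probe set of their own in the annotation used here. Their summed signal in wild type was 576 to 690 under DMSO and 519 to 546 under trans-zeatin. In the mutant it was 388 to 432 under DMSO and 380.2 to 406 under trans-zeatin. Of 19 root markers, only the root hair expansins EXPA7 and EXPA18 had one. Their sums were 223 to 315, 169 to 195, 164 to 206 and 162 to 185 in the same order. No marker that was measured was at 0, and their part in the results below was not tested. In whole roots, fewer cells of a type and less RNA per cell cannot be told apart.

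BGLU46 (AT1G61820) and BGLU45 encode enzymes that split monolignol glucosides, the storage forms of lignin precursors, and BGLU47 (AT4G21760) belongs to the same branch of the family. In wild-type roots trans-zeatin moved BGLU46 and BGLU47 in opposite directions. BGLU46 signal was 188, 201 and 213 under DMSO and 139.8, 136 and 128 under trans-zeatin. Every treated array was below every control array, and the mean went from 201 ± 12.9 (SD, n = 3) to 134 ± 6.14. On the scale of log2 of signal plus 6.65, BGLU46 fell by 0.55 ± 0.13 (SE; limma adjusted p = 0.012). BGLU47 signal was 37.3, 27.5 and 21.4 under DMSO and 54.5, 61.0 and 56.5 under trans-zeatin. The groups again did not overlap, and BGLU47 rose by 0.88 ± 0.15 on the log2 scale (adjusted p = 0.0019), from 28.7 ± 8.03 to 57.3 ± 3.34. Its 3 control arrays spread more than those of the other 6 genes, with a coefficient of variation of 28.0%.

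These were the 2 of 7 genes called in wild type, where 8.64% of all 13647 tested probe sets were called. The median log2 change of all 7 genes was 0.02, beside 0.02 over all tested probe sets. BGLU46 and BGLU47 passed in all 21 other settings, BGLU46 with adjusted p of 0.0011 to 0.048 and BGLU47 with 8.8e-05 to 0.014. With an offset of 32 in place of 6.65 the change of BGLU47 was 0.57. In the same comparison EXPA7 and EXPA18 were called lower (-0.67 and -0.43), as was 1 of the 3 photosynthetic markers, LHCB4.2 (-1.03). The median change of these 3 markers was -0.16.

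**Figure D1:**
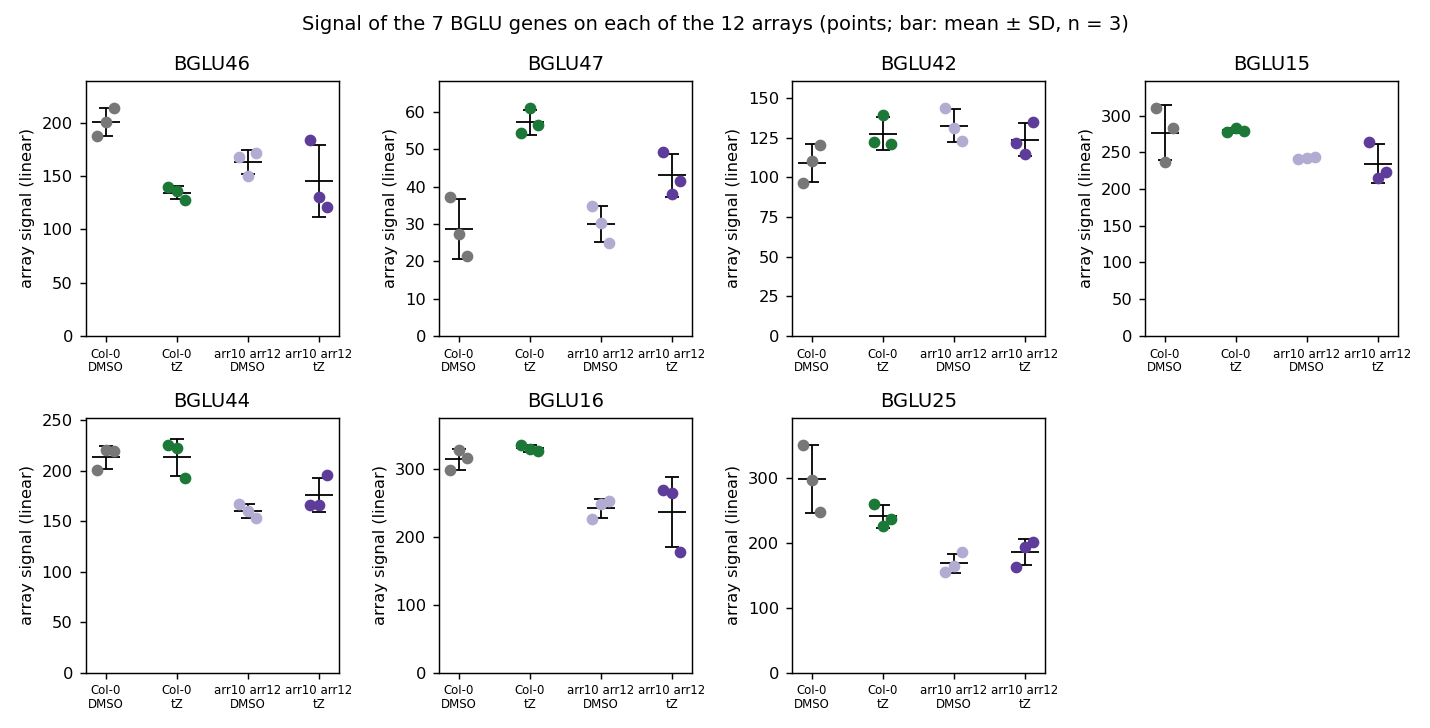
Array signal on a linear axis for each of the 7 genes, in 4 groups of 3 arrays (points, with the mean and SD as bars; tZ is trans-zeatin). BGLU46 and BGLU47 separate the wild-type treatments in opposite directions. In the mutant under DMSO, BGLU25, BGLU44, BGLU16 and BGLU46 lie lower without overlap, and BGLU42 lies higher. The means of those lower are 168, 160.3, 242 and 163 against 298, 214, 314 and 201 in wild type. Only BGLU25 and BGLU44 passed in this comparison.

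In arr10 arr12 roots neither of the pair passed. BGLU46 signal was 167, 149.8 and 171 under DMSO and 183, 130.2 and 121 under trans-zeatin. Mutant trans-zeatin replicate 1 was above all DMSO arrays and the other 2 below them. The log2 change was -0.18 (95% interval -0.45 to 0.08, adjusted p = 0.73), and -0.36 without that array (adjusted p = 0.11). BGLU47 signal was 34.8, 30.2 and 25.02 under DMSO and 49.3, 38.2 and 41.6 under trans-zeatin. Here every treated array was above every control array, but the change of 0.44 (0.12 to 0.77) did not pass the adjustment (adjusted p = 0.23; unadjusted p = 0.011). None of the 7 genes was called in the mutant, where 1.24% of tested probe sets were called, and BGLU47 was the only one of the 7 with an unadjusted p under 0.05, beside 1433 of 13647 probe sets. Of the 3 photosynthetic markers, 1 was called lower with trans-zeatin in the mutant, and the median change of the 3 was 0.03. Neither EXPA7 nor EXPA18 was called there.

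The test of the difference between the responses, arr10 arr12 minus wild type, passed for 0 of 7 genes with limma, where 0.0440% of tested probe sets, 6 in all, passed. The difference was 0.37 for BGLU46 (-0.00 to 0.75, adjusted p = 0.46), or 0.20 without mutant trans-zeatin replicate 1 (adjusted p = 0.64). For BGLU47 it was -0.44 (-0.90 to 0.02, adjusted p = 0.48). Of the 7, BGLU25 was the 1 with an unadjusted p under 0.05 (0.43, interval 0.06 to 0.79, adjusted p = 0.41), beside 1476 of 13647 probe sets. The smaller changes in the mutant are therefore not shown to differ from those of wild type. Compared directly, all 3 mutant arrays were below the wild-type arrays for BGLU46 under DMSO (-0.29, adjusted p = 0.20) and for BGLU47 under trans-zeatin (-0.37, adjusted p = 0.29), and neither passed.

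**Figure D2:**
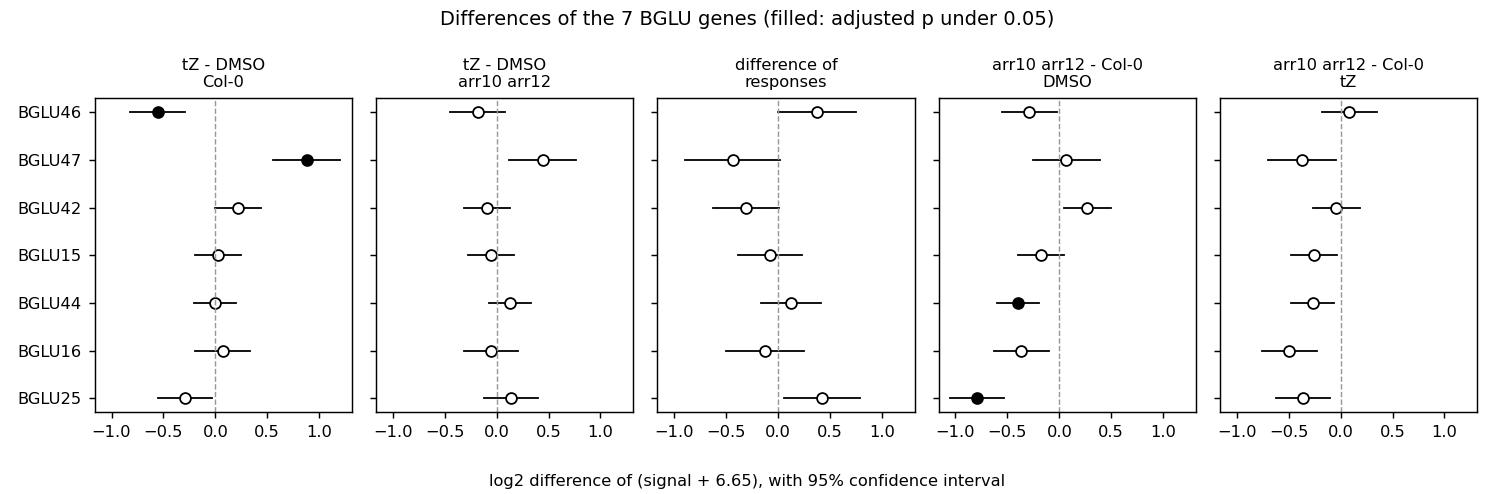
Log2 differences of signal plus 6.65 for the 7 genes in the 5 comparisons, as points with 95% intervals. Filled points passed an adjusted p of 0.05: BGLU46 (-0.55) and BGLU47 (0.88) with trans-zeatin in Col-0, and BGLU44 (-0.40) and BGLU25 (-0.79) for the mutant under DMSO.

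The measured genes listed for monolignol synthesis did not pass beside them. Of 23 listed genes of monolignol synthesis, 4 had a probe set in the annotation used here. All 4 were tested, and 0 passed with limma in any of the 5 comparisons. In wild type the log2 change was -0.10 for HCT, a shikimate acyltransferase of the core pathway. For UGT72E1, UGT72E2 and UGT72E3, which encode glucosyltransferases of monolignols or related compounds, it was -0.28, 0.23 and -0.05. An unadjusted p under 0.05 was reached by UGT72E1 with trans-zeatin in the mutant (-0.35), beside 1433 of 13647 probe sets. For the mutant under DMSO it was reached by UGT72E1 (0.30) and HCT (-0.21), beside 2859 of 13647. BGLU45 had signal between 14.7 and 25.5 on all arrays, and its change in wild type was -0.04 (-0.36 to 0.28) in a fit of all probe sets.

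Of the 7 genes, BGLU25 (AT3G03640) had the largest log2 difference between the genotypes under DMSO. Its signal under DMSO was 351, 297 and 247 in wild type and 156, 164 and 185 in arr10 arr12, so that the genotypes did not overlap. BGLU25 was lower in the mutant by a log2 difference of -0.79 ± 0.12 (SE; adjusted p = 0.0019), with means of 298 ± 51.9 and 168 ± 15.2 (SD, n = 3). Under trans-zeatin the values were 259.7, 226 and 237 in wild type and 163, 194 and 201 in the mutant. All mutant arrays were again the lower ones, but the difference of -0.36 (-0.62 to -0.10) did not pass (adjusted p = 0.16). The change with trans-zeatin in wild type was -0.29 (-0.55 to -0.03, adjusted p = 0.16), and it did not pass in 20 of 21 other settings. It was -0.17 without wild-type DMSO replicate 1 (adjusted p = 0.53), and -0.41 without replicate 3, where it passed (adjusted p = 0.045).

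BGLU44 (AT3G18080), whose enzyme prefers beta-mannosides to glucosides, was the other gene called under DMSO. Its signal was 200.3, 221 and 219 in wild type and 167, 160.1 and 153 in the mutant, again without overlap. The log2 difference was -0.40 ± 0.10 (adjusted p = 0.027). This call was lost without any 1 of 5 arrays, namely wild-type DMSO replicates 2 and 3 and mutant DMSO replicates 1, 2 and 3, with adjusted p of 0.0525 to 0.099 and differences of -0.43 to -0.37. Under trans-zeatin the values were 226, 223 and 192 against 166, 166 and 196, which overlap, and the difference was -0.27 (adjusted p = 0.19). With trans-zeatin in wild type the change was -0.00 (-0.21 to 0.20), and in the mutant 0.13 (-0.08 to 0.33).

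Under DMSO, then, 2 of 7 genes were called and both were lower, where 5.00% of tested probe sets were called and 2.98% were called lower. The median difference of the 7 was -0.29, beside 0.02 over all tested probe sets. An unadjusted p under 0.05 was reached by 5 of 7, beside 2859 of 13647. Among these 5, BGLU42 was higher in the mutant (0.27) and the others were lower. Of the photosynthetic markers, 3 of 3 measured genes were lower in the mutant under DMSO (RCA -0.55, LHCB4.1 -0.56, LHCB4.2 -0.86), as were EXPA7 and EXPA18 (-0.55 and -0.49).

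BGLU16 (AT3G60130) lay at the threshold under trans-zeatin. Its signal there was 335, 329 and 326 in wild type and 268, 264 and 177 in arr10 arr12. All mutant arrays were lower, and replicate 3 was lower than the other 2. The log2 difference was -0.49 ± 0.12 (adjusted p = 0.05005, just above the threshold), so that 0 of 7 genes were called with limma under trans-zeatin, where 2.32% of tested probe sets were called and 5 of 7 genes had an unadjusted p under 0.05, beside 1807 of 13647. With the replicate number as a block over all 12 arrays, BGLU16 passed (adjusted p = 0.034). With that block 484 probe sets were called in place of 316. The pairing was picked from these same data, so the pass does not settle the call. Without mutant trans-zeatin replicate 3 the difference was -0.30 (adjusted p = 0.084), and without replicate 1 or 2 it was -0.59 and -0.58 and passed. Under DMSO the values were 298, 328 and 316 against 226, 247 and 252, without overlap, and the difference of -0.37 (-0.63 to -0.10) did not pass (adjusted p = 0.10). It passed in 3 of 21 other settings. These were the fit of the 2 groups alone (adjusted p = 0.044), array quality weights (0.013) and the fit without mutant trans-zeatin replicate 3 (0.013), an array that enters that comparison through the shared estimate of the spread. With trans-zeatin its log2 change was 0.07 (-0.19 to 0.34) in wild type and -0.05 (-0.32 to 0.21) in the mutant. Of the photosynthetic markers, 1 of 3 was called lower in the mutant under trans-zeatin, RCA (-0.50). The median difference of the 3 was -0.43.

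BGLU15 (AT2G44450), which removes glucose from flavonol glycosides, was the steadiest of the 7 in wild type under trans-zeatin and in the mutant under DMSO, with 277, 284 and 279 and with 241, 242 and 244. Its values were 309.9, 237 and 284 in wild type under DMSO and 264, 215 and 224 in the mutant under trans-zeatin. Replicate 2 stood below the other 2 in the former group, and replicate 1 above the other 2 in the latter. The response to trans-zeatin was 0.02 (-0.19 to 0.24) in wild type and -0.05 (-0.27 to 0.16) in the mutant. Its genotype difference was -0.18 under DMSO and -0.26 under trans-zeatin, and neither passed (adjusted p = 0.35 and 0.28).

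BGLU42 (AT5G36890) encodes the enzyme that frees scopoletin from scopolin in roots short of iron or primed by soil bacteria. Its signal was 96.3, 110.3 and 120.3 in wild type under DMSO and 122, 139 and 121 with the cytokinin. Each of these 3 was above each control value, and the log2 change was 0.22 (-0.01 to 0.44, adjusted p = 0.23). In the mutant it was 144, 131 and 123 under DMSO and 122, 115 and 135 under trans-zeatin. The wild-type DMSO group held the lowest 2 values of all 12 arrays. BGLU42 alone of the 7 had an interval wholly above 0 for the mutant under DMSO (0.27, 0.05 to 0.49), and it did not pass (adjusted p = 0.16). F6'H1, the enzyme that makes scopoletin's precursor, was the only 1 of 15 listed coumarin and iron genes with a probe set in the annotation used here. Its changes lay between -0.11 and 0.07 in the 5 comparisons.

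The ER body enzymes BGLU21, BGLU22 and PYK10 hydrolyse scopolin, and PYK10 also indole glucosinolates. None of them was called in any comparison. PYK10, which is BGLU23 under another symbol, ranged from 3141 to 4214 over all arrays, and the probe set shared by BGLU21 and BGLU22 from 1902 to 2830.2. The change with trans-zeatin was -0.08 (-0.30 to 0.13) for PYK10 and 0.07 (-0.21 to 0.35) for BGLU21 with BGLU22 in wild type, and 0.09 (-0.13 to 0.31) and 0.06 (-0.22 to 0.34) in the mutant. Of the 17 listed ER body genes, 7 had a probe set and 6 were tested. NAI1, the transcription factor needed for ER bodies and for PYK10 expression, rose in both genotypes. Its signal went from 164 ± 21.7 to 323 ± 41.4 (SD, n = 3) in wild type, a log2 change of 0.95 ± 0.13 (adjusted p = 2.3e-04), and from 160.3 ± 15.0 to 271 ± 44.7 in the mutant, a change of 0.73 ± 0.13 (adjusted p = 0.0099). The mutant call was lost without mutant DMSO replicate 2 or 3 or mutant trans-zeatin replicate 2 (adjusted p up to 0.066), and the responses did not differ by the test between genotypes (-0.23, adjusted p = 0.69). NAI2, an ER body protein, changed by 0.10 and 0.20 in wild type and mutant, and the jacalin-related lectins of the PYK10 complex by -0.11 and 0.07 (JAL33) and by 0.07 and 0.19 (JAL34). None of these passed in any of the 5 comparisons. For the mutant under DMSO the log2 difference was -0.22 for NAI2, -0.32 for JAL33, -0.19 for JAL34 and -0.03 for NAI1. It was -0.04 for BGLU21 with BGLU22, and -0.16 for PYK10 (adjusted p = 0.39 with limma), whose mutant arrays were all below the wild-type ones.

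The 13 genes below the minimum had mean signals from 1.36 (BGLU19) to 18.6 (BGLU45). In 8 of them, BGLU19, BGLU28, BGLU29, BGLU31, BGLU32, BGLU36, BGLU41 and BGLU43, the mean lay below the offset of 6.65, which then sets the size of a log2 difference. They were measured in a fit without the filter, in which 4.01%, 0.448%, 0.0176%, 1.85% and 1.19% of 22746 probe sets were called for trans-zeatin in wild type, trans-zeatin in the mutant, the difference of responses, the mutant under DMSO and the mutant under trans-zeatin. Of the 13, 1 was called in any of these, BGLU33 for the mutant under DMSO. Without mutant trans-zeatin replicate 3, BGLU36 was also called, for trans-zeatin in the mutant and for the mutant under trans-zeatin.

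**Figure D3:**
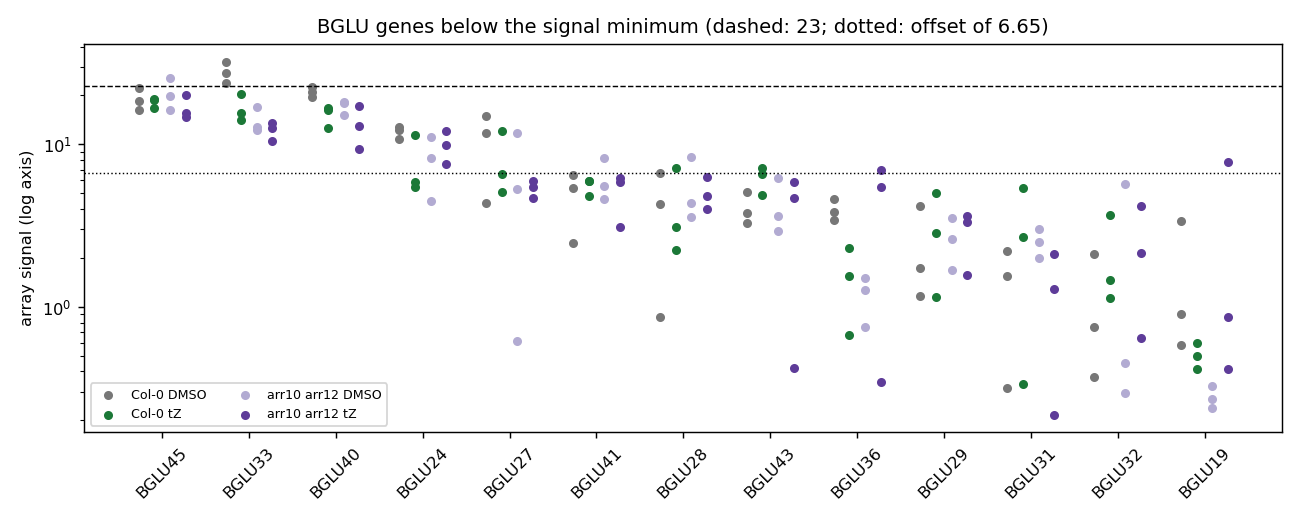
Signal, on a log axis, of the 13 genes below the minimum of 23 (dashed line) on each of the 12 arrays, with the offset of 6.65 dotted. BGLU33 under DMSO in Col-0, at 23.7 to 32.3, is the group that lies wholly above the line.

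BGLU33 (AT2G32860) encodes a vacuolar enzyme that frees abscisic acid, the drought hormone, from its glucose ester. Its signal was 23.7, 32.3 and 27.5 in wild type under DMSO and 12.2, 12.8 and 17.1 in the mutant under DMSO. The groups did not overlap, and the difference was -0.74 ± 0.15 (adjusted p = 0.028), or -0.38 with an offset of 32. It was lost without wild-type DMSO replicate 1 or 2 or mutant DMSO replicate 1 or 2, with adjusted p of 0.052 to 0.135. Under trans-zeatin the values were 20.5, 15.6 and 14.04 in wild type and 13.6, 10.4 and 12.7 in the mutant, a difference of -0.30 (-0.62 to 0.02, adjusted p = 0.50). All 3 wild-type trans-zeatin arrays were also below the wild-type DMSO arrays, and that change of -0.56 did not pass (adjusted p = 0.054), though it did in 4 of 17 other settings. Of 17 listed genes of abscisic acid metabolism, 3 had a probe set and 1 was tested, UGT71C5, whose enzyme makes the glucose ester. UGT71C5 fell by 0.39 with trans-zeatin in wild type (adjusted p = 0.017, lost in 4 of 21 other settings, each without 1 wild-type array).

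On the other lists, UGT74B1, a glucosyltransferase of glucosinolate synthesis and 1 of 24 listed indole glucosinolate genes with a probe set, rose by 0.36 with trans-zeatin in wild type (adjusted p = 0.023) and was lower in the mutant under trans-zeatin (-0.40, adjusted p = 0.031). These calls were lost in 5 and 7 of 21 other settings. Of 12 listed genes of cytokinin glucosides and breakdown, 3 had a probe set and 2 were tested, and UGT76C2 passed with trans-zeatin in wild type (0.54, adjusted p = 0.048, lost in 12 of 21 other settings) while UGT76C1 did not (-0.31, adjusted p = 0.15). None of the 17 listed sulfur starvation genes had a probe set in the annotation used here. Of 10 other family 1 genes on the list, 2 had a probe set and PYK10 was the 1 tested.

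In the reference gene table, 4 of the 7 genes lie next to relatives. BGLU46 follows BGLU45 (mean signal 18.6) and BGLU44 follows BGLU43 (4.54). BGLU16 lies between BGLU27 (7.37) and DIN2, which is BGLU30, and BGLU15 is followed by BGLU28 (4.65), BGLU29 (2.70) and BGLU17. In each of these runs the measured neighbours were all below the minimum. BGLU17 and DIN2 were not analysed here.

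**Figure D4:**
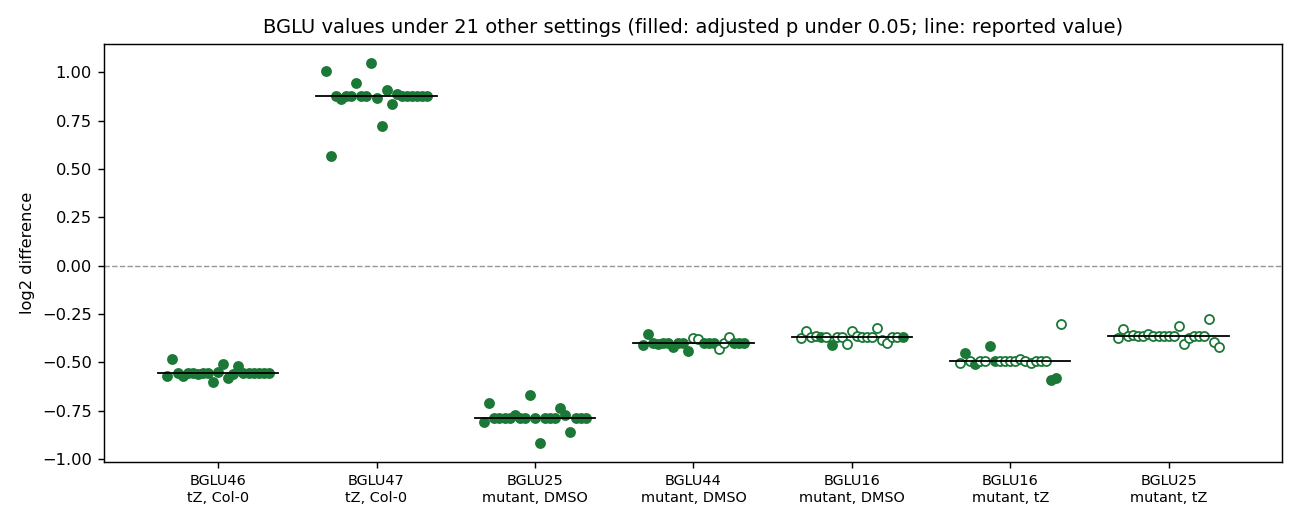
Log2 differences of selected genes under 21 other settings of the analysis (points, filled where the adjusted p was under 0.05), with the reported value as a line. BGLU46 and BGLU47 with trans-zeatin in Col-0, and BGLU25 for the mutant under DMSO, kept every call. For the mutant, BGLU44 under DMSO lost 5 of 21, and BGLU16 under trans-zeatin passed in 6 of 21.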

How the data were processed

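Signals of 12 Affymetrix ATH1 arrays were analysed. The deposited values are linear intensity. MAS5 and GCOS are named in the submitters' processing notes, with versions not given in the sources used here. The 2%-trimmed mean was 100.01 on every array, so the values were used as deposited. Of 22810 probe sets, 64 controls were left out. Log2 was taken after adding 6.65, the 25th percentile of the signals, which understates changes of dim genes. The 13647 probe sets with a mean above the 40th percentile, a signal of 23.5, were tested with limma 3.58.1 in R 4.3.3: a mean per group over 12 arrays, variance moderated with an intensity trend, 2-sided, p adjusted by Benjamini and Hochberg's method over the 13647, threshold 0.05. The test was tried on simulated data. Names came from the platform annotation, which lists 14016 of 22746 probe sets, and from RefSeq genes of TAIR10.1.

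The members, the 8 gene lists, the rule for naming genes and the tests were chosen with earlier results of these data known. From each list at most 4 tested genes with the smallest p were named. The probe set shared by BGLU21 and BGLU22 was added after its values were seen. GLUC on 1 list is a synonym of BGLU25 and was left out there. The labels do not say whether replicates were grown separately, so the spread behind the p-values may be technical, and the number of arrays limits the precision. The titles number the replicates 1 to 3 in every group. Deviations of arrays from their group means were correlated. For the mutant against wild type under trans-zeatin, same-numbered arrays reached over 0.1 in 3 of 3 pairs (0.136 to 0.156). In each other comparison this held in at most 1 of 3 pairs. Over all pairs of groups it held in 9 of 18 same-numbered pairs (up to 0.335) and in 4 of 36 other pairs (up to 0.180). The number was taken to pair arrays in the comparison under trans-zeatin only, though the block was fitted over all 12 arrays. This pairing comes from the data, not from the labels. Alternatives were other offsets, no filter, quantile normalization, 2-group fits, no trend, array weights, the block and leaving out each array. A filter on the mean log2 value, the settings for listed genes and those for BGLU33 and BGLU40 were added after seeing the data.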

Additional observations from a re-analysis of the deposited data

How the results depend on the processing

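Of 35 gene values, 7 genes in 5 comparisons, 4 passed and 0 reversed, and 9 of the values that did not pass changed sign in at least 1 setting. The number of genes called was 2 for trans-zeatin in wild type (2 to 3 when 1 array was left out), 0 in the mutant (0 to 0), 0 for the difference of responses (0 to 0), 2 for the mutant under DMSO (1 to 3) and 0 for the mutant under trans-zeatin (0 to 1). Under trans-zeatin it was 1 with an offset of 32, with quantile normalization, with array quality weights and with the replicate block, BGLU16 each time, as it was without mutant trans-zeatin replicate 1 or 2. The replicate block changed no other call of the 7 genes. In the comparisons not taken to pair by number it gave 1402 called probe sets in place of 1179 for trans-zeatin in wild type. It gave 290 in place of 169 in the mutant and 934 in place of 682 for the mutant under DMSO. Genes near the offset are limited by signal over background.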
